A study of Mus musculus with 6 samples.

Results

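The genes described here encode the ephrin, netrin and Slit guidance systems, namely the ephrins with their Eph receptors, the netrins with the receptors Dcc, Neo1 and Unc5, and the Slits with the Robo receptors. The list holds 35 symbols, drawn up by function but with earlier results of these arrays known, and a gene was kept when the array platform's annotation assigned at least 1 probe set to that symbol alone. This left 34 of the 18193 genes that the arrays represent, and *Ephb2* is not analysed here. They comprise 9 EphA receptors, 4 EphB receptors, 5 ephrin-A and 2 ephrin-B ligands, 2 netrins, 6 netrin receptors, 3 Slits and 3 Robo receptors. Total RNA came from dorsal midbrains of C57BL/6 mouse embryos at embryonic day 10.5, with 3 *Ezh2* cko and 3 control samples and 1 Affymetrix A430 array each.

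The *Ezh2* cko embryos were *Wnt1-Cre*+/*Ezh2*[SET]lox/lox, so that Cre under the *Wnt1* promoter deletes the SET domain exons of *Ezh2*, which encode the histone methyltransferase activity. Controls were, by the methods, *Wnt1-Cre*-/*Ezh2*[SET]lox/lox or *Wnt1-Cre*+/*Ezh2*[SET]wt/lox littermates, so every control also carried a floxed allele, although the labels call them WT. *Wnt1-Cre* is also active in neural crest, and therefore in head mesenchyme beside the brain. Each group came from 2 litters, the litter of each sample is not given, and neither is whether an array holds 1 embryo or a pool, so the p-values measure the spread between these samples. The *Ezh2* probe set, which cannot be placed inside or outside the deleted part, had log2 signals of 11.69, 11.76 and 11.66 in controls and 11.79, 11.74 and 11.72 in the *Ezh2* cko, and does not check the deletion. Progenitor markers, among them *Nes*, *Sox2* and *Vim*, had log2 signals of 8.43 to 13.66 on the arrays, and mesenchyme markers reached 12.93, so the dissected tissue was not neuroepithelium alone. In such bulk tissue, fewer cells of a type and less RNA per cell cannot be told apart.

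Ephrins are membrane-bound ligands, and contact with an Eph receptor on a neighboring cell usually repels the growing axon or keeps cell groups apart. In the dorsal midbrain, which becomes the tectum, graded ephrin-A2 and ephrin-A5 are best known for positioning the axons that arrive from the retina. Netrin-1 attracts axons through Dcc and repels them through Unc5 receptors, whereas Slits, secreted near the midline, repel axons that carry Robo receptors. All values below are log2 signals made by the authors with RMA, so signals of different probe sets are not set against each other as levels. For a gene with several probe sets, the values are those of the set with the highest average on the 6 arrays.

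Among the guidance genes, *Ephb1*, a receptor for B-type ephrins that routes retinal axons at the optic chiasm, rose in the *Ezh2* cko midbrain. It was 1.62-fold higher and the single member past the test (adjusted p = 0.0343 from limma, Benjamini-Hochberg over 45037 probe sets). None fell. The ephrin-A receptor gene *Epha3* was 2.22-fold higher on average and *Dcc* 1.88-fold, while *Ntn1*, which encodes netrin-1, was 1.79-fold lower, but the adjusted p of each was above the threshold. The members that passed, 1 of 34 higher (2.94%) and 0 lower, stood beside 0.297% higher and 0.0055% lower of all genes.

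The methods selected a gene list by fold change and p, which corresponds to a log2 difference of 0.81 or more either way and an unadjusted p no greater than 0.01. By limma, *Epha3* and *Dcc* were higher and *Ntn1* was lower at that threshold. These genes are in the list the study chose on these arrays, which is not independent evidence of their direction. Over all genes, 0.374% were higher and 0.033% were lower at this threshold. In 11 members (32.4%) every *Ezh2* cko array lay above every control, against 7.52% of all genes, and in 2 members (5.88%), *Ntn1* and *Ephb4*, every *Ezh2* cko array lay below, against 7.88%. The 11 became 8 with the mean of the probe sets of a gene. At an unadjusted p under 0.05, 11 members were higher and 1 was lower, against 6.12% and 2.75% of all genes. The median log2 difference was 0.13 over the members and -0.02 over all genes. On single arrays, the median of the members, as a deviation from each gene's mean, was -0.09, -0.06 and -0.04 in controls and 0.07, 0.06 and 0.09 in the *Ezh2* cko.

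**Figure D1:**
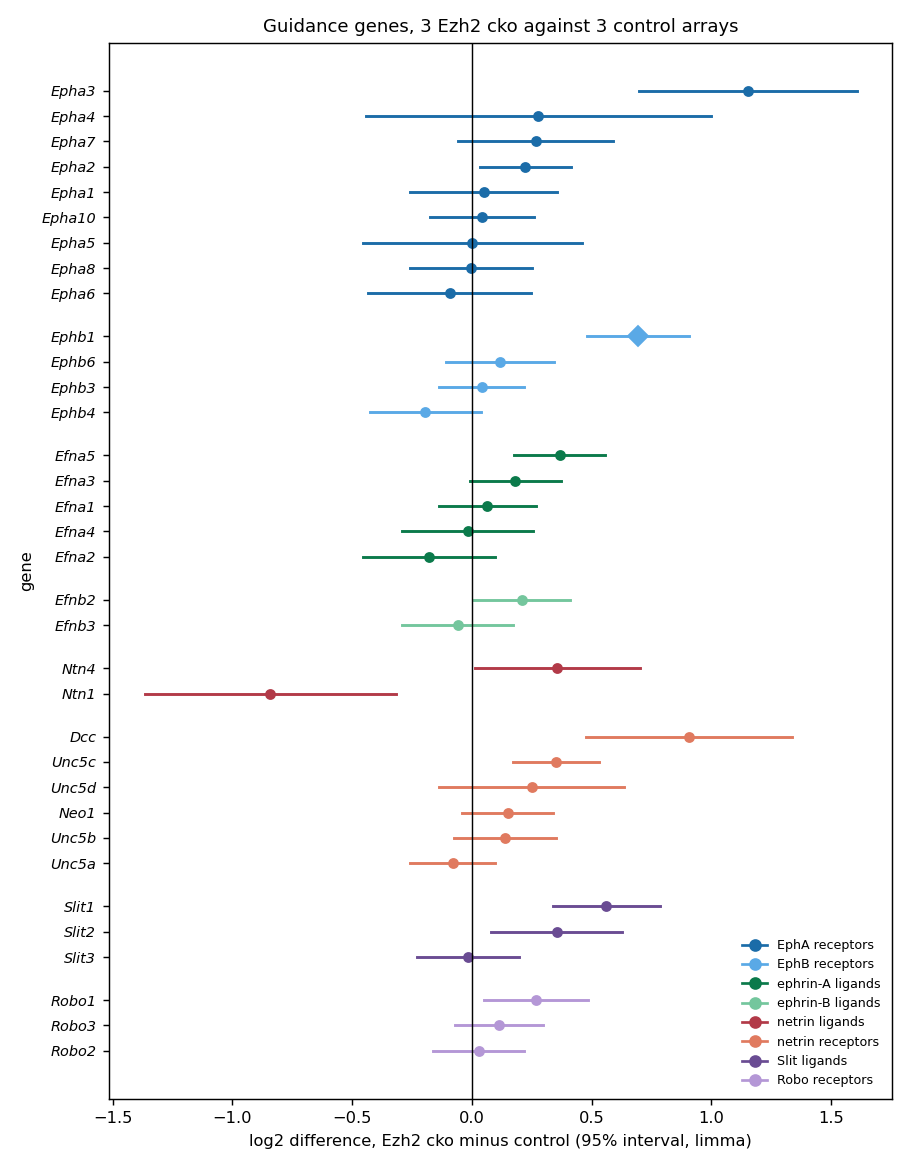
Log2 difference, *Ezh2* cko minus control (x axis), of the 34 guidance genes (y axis, grouped and colored by class), with 95% intervals from limma as lines; the diamond marks the gene past the adjusted p. *Ephb1* is the diamond at 0.69, *Epha3* and *Dcc* lie farthest to the right at 1.15 and 0.91, and *Ntn1* lies alone on the left at -0.84.

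Polycomb repression by Ezh2 is known to act mainly at promoters rich in CG dinucleotides, so the RefSeq promoter windows of the members were read, each running from 250 bases before to 50 bases after the gene start on GRCm38.p6. Windows were found for 29 of the 34 members, and *Dcc*, *Ntn1*, *Slit1*, *Unc5d* and *Efnb3* had none. The windows of *Ephb1* (chr9:102354644-102354943, minus strand), the gene that passed the test, and of *Epha3* (chr16:63864126-63864425, minus strand), with the largest difference, are printed beside that of *Epha8* (chr4:136956767-136957066, minus strand), which was the richest in CG and whose signal differed by -0.00. They are written 5′ to 3′ on the strand of the gene, with each CG in capitals.

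Ephb1: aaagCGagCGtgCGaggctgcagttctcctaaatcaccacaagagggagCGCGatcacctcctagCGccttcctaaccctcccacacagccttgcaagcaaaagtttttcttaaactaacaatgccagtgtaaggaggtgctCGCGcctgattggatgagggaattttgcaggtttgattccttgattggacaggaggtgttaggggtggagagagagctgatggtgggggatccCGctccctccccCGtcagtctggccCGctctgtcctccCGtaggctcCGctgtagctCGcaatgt
Epha3: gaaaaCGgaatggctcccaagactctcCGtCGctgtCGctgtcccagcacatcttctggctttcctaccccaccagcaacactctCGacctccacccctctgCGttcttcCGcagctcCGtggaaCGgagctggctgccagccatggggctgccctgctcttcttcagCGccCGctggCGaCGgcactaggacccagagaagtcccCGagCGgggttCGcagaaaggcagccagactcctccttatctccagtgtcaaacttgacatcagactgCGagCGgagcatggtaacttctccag
Epha8: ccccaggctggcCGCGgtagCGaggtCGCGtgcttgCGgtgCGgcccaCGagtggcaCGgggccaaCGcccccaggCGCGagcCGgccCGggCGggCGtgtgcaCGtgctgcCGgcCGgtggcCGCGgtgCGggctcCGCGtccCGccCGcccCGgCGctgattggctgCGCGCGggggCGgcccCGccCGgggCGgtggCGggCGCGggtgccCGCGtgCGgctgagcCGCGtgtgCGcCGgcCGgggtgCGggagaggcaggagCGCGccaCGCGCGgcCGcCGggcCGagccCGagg

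The window of *Ephb1* held 14 CG dinucleotides, that of *Epha3* 18 and that of *Epha8* 56. Of all 32851 windows of this length, 36.3% held at least as many as *Ephb1*, 29.7% as many as *Epha3* and 0.195% as many as *Epha8*. Over the 34 windows of the members the median was 22.5, against 7 over all windows, and 21 of the 34 had at least 20, as 26.5% of all windows did. All windows come from 27025 genes, more than the arrays represent, and those of the members from 29 genes, some with several windows. The windows of the members that were higher without overlap had a median of 24 (9 windows), and those of the other members 22 (25 windows). No histone mark was measured on these arrays.

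**Figure D2:**
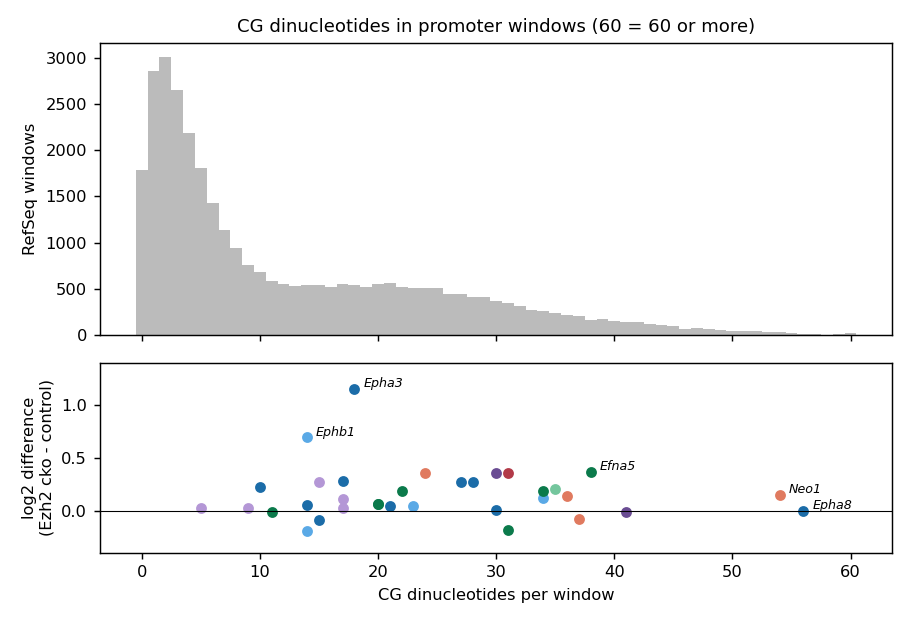
Upper panel, number of RefSeq promoter windows (y axis) by their count of CG dinucleotides (x axis); lower panel, log2 difference, *Ezh2* cko minus control (y axis), of each member window's gene against the same count, in the colors of the classes. The member windows range from 5 to 56, and *Ephb1* and *Epha3*, at 14 and 18, lie to the left of *Epha8* and *Neo1*, at 56 and 54, whose differences were -0.00 and 0.15.

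Of the 9 EphA receptor genes, none passed the adjusted p, and their median log2 difference was 0.05. *Epha3* had log2 signals of 6.17, 6.50 and 6.65 in controls and 7.44, 7.29 and 8.05 in the *Ezh2* cko. The groups were 0.64 apart at their closest, and *Ezh2* cko replicate 3 was the highest. The log2 difference was 1.15 (95% interval 0.70 to 1.61, adjusted p = 0.0934), which ranked 33 by size among the 18193 genes. With a replicate block, which rests on the sample numbers alone, it passed (adjusted p = 0.0493). Of its 3 other, much dimmer probe sets, 2 were also higher on every *Ezh2* cko array, with differences of 0.71 and 0.39 (adjusted p = 0.422 and 0.445), and the third gave 0.00. *Epha2*, a receptor known from epithelia and the early embryo, was at 7.60, 7.57 and 7.58 in controls and 7.94, 7.75 and 7.72 in the *Ezh2* cko. This difference of 0.22 was small but the groups did not overlap (adjusted p = 0.577).

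*Epha7*, another receptor for ephrin-A ligands, overlapped between the groups, at 8.15, 8.60 and 8.68 in controls and 8.61, 8.75 and 8.88 in the *Ezh2* cko (log2 difference 0.27, adjusted p = 0.74). *Epha4* and *Epha5* were looked at after their values were seen, since they spread widely within the groups. *Epha4*, which encodes a receptor for both ephrin classes, ranged from 6.26 to 7.52 in controls and from 6.75 to 7.52 in the *Ezh2* cko. *Epha5* was at 6.20, 6.80 and 6.81 in controls and 6.24, 6.78 and 6.80 in the *Ezh2* cko, so that replicate 1 was the lowest in each group and the group means were equal (difference 0.00, 95% interval -0.46 to 0.46). The remaining *Epha1*, *Epha6*, *Epha8* and *Epha10* had differences between -0.09 and 0.05.

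*Ephb1* had log2 signals of 8.44, 8.55 and 8.43 in controls and 9.26, 9.002 and 9.23 in the *Ezh2* cko. All *Ezh2* cko arrays lay at least 0.45 above the highest control, and the SD of 3 arrays was 0.07 among controls and 0.14 among *Ezh2* cko samples. The log2 difference was 0.69 (standard error 0.09, 95% interval 0.48 to 0.91). The array carries 1 probe set for this gene, so no other set bears on it. Leaving out any 1 array other than *Ezh2* cko replicate 2 ended the call, at adjusted p-values of 0.106 to 0.158 (0.0461 without that replicate), while the difference ranged from 0.65 to 0.78. The call also ended with array weights (adjusted p = 0.0519), a replicate block (0.103) and the Student test named in the methods (0.437).

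The other EphB receptors did not pass the test. *Ephb3*, which acts with other EphB receptors in axon guidance, was at 9.11, 9.23 and 9.13 in controls and 9.25, 9.12 and 9.22 in the *Ezh2* cko, with a 95% interval of the difference from -0.14 to 0.22. *Ephb4*, the receptor for ephrin-B2 on veins, was at 7.73, 7.91 and 7.75 against 7.71, 7.42 and 7.68, lower on every *Ezh2* cko array by a margin of 0.02 (log2 difference -0.19, adjusted p = 0.737). *Ephb6*, which encodes a receptor without kinase activity, had a difference of 0.12 (adjusted p = 0.846).

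**Figure D3:**
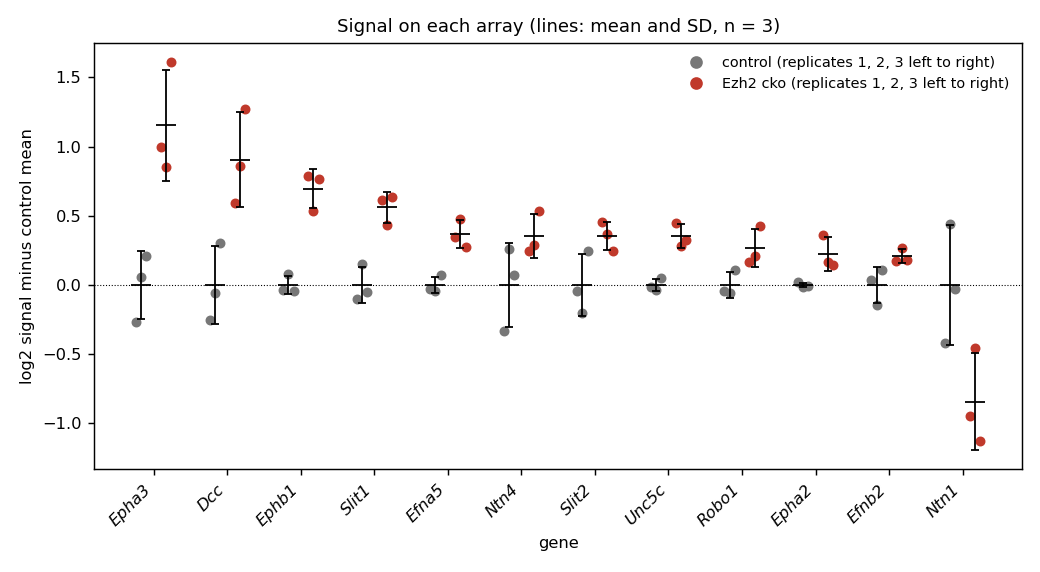
Log2 signal of each array relative to the average of the controls (y axis), for the 12 members with an unadjusted p under 0.05 (x axis), as grey (control) and red (*Ezh2* cko) points with the mean and SD of 3 arrays as black lines. The groups are apart for *Epha3*, *Dcc*, *Ephb1* and *Slit1*, they overlap for *Ntn4*, and all *Ezh2* cko points of *Ntn1* lie below its widely spread controls.

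Among the ligands of the Eph receptors, none passed the adjusted p, and the 2 best known from the tectum had average differences of opposite sign. *Efna5* had signals of 10.48, 10.47 and 10.58 in controls and 10.86, 10.98 and 10.79 in the *Ezh2* cko. The groups were 0.21 apart, for a log2 difference of 0.37 (95% interval 0.18 to 0.56, adjusted p = 0.219), although its other, much dimmer probe set gave -0.18. *Efna2* was at 11.95, 12.13 and 11.80 in controls and 11.99, 11.73 and 11.62 in the *Ezh2* cko, and the groups overlapped (difference -0.18, 95% interval -0.46 to 0.10). *Efna1*, *Efna3* and *Efna4* had differences of 0.06, 0.18 and -0.02, and their groups also overlapped.

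*Efnb2*, a ligand of *Ephb1* that also marks arteries, was at 11.15, 10.97 and 11.22 in controls and 11.29, 11.38 and 11.30 in the *Ezh2* cko. It was higher on every *Ezh2* cko array, by 0.21 on average (adjusted p = 0.646), and all 4 of its probe sets were higher on average. Without control replicate 2 the difference was 0.14 (adjusted p = 0.819). *Efnb3*, a midline ephrin, was at 10.08, 10.05 and 9.95 in controls and 10.09, 10.04 and 9.76 in the *Ezh2* cko, with a difference of -0.06 (95% interval -0.29 to 0.17).

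In the netrin system, the ligand *Ntn1* was lower and its receptor *Dcc* higher on average, and neither passed the adjusted p. *Ntn1* had log2 signals of 8.20, 9.06 and 8.59 in controls and 7.68, 8.17 and 7.49 in the *Ezh2* cko. The lowest control was only 0.04 above the highest *Ezh2* cko array, and the controls spread over 0.86. The log2 difference was -0.84 (95% interval -1.37 to -0.32, adjusted p = 0.355), and its dim second probe set was also lower on every *Ezh2* cko array (-0.16). Netrin-1 is made in large part by the floor plate, the ventral midline of the neural tube. Of 7 floor plate markers, 5 had negative and 2 positive differences, with a median of -0.12. Their mean, as a deviation from each gene's mean, was -0.20, 0.08 and -0.00 in controls and -0.02, 0.17 and -0.02 in the *Ezh2* cko, higher on average in the *Ezh2* cko and so opposite in sign to the median. *Spon1*, a secreted floor plate protein gene, had the largest negative difference of the list (-0.52, adjusted p = 0.801). *Foxa1*, a floor plate transcription factor, rose (log2 difference 1.23, adjusted p = 0.00628), and the positive mean rested on it. *Foxa1* is also in the list the study chose on these arrays. *Corin* was the other positive marker (0.44, adjusted p = 0.479), while *Shh*, *Foxa2*, *Nkx6-1* and *Lmx1a* had negative differences. The probe sets of *Shh* (4.17 to 4.39) and *Foxa2* (4.92 to 5.36) were dim, below the median of every array (5.68 to 5.72). Their small differences could not be resolved. The part of ventral tissue in the difference of *Ntn1* was not tested.

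*Ntn4*, a netrin of basement membranes, was at 7.43, 8.02 and 7.83 in controls and 8.001, 8.05 and 8.29 in the *Ezh2* cko. The groups overlapped narrowly, with a difference of 0.36 (95% interval 0.01 to 0.70, adjusted p = 0.648). Without control replicate 1 it was 0.19 (adjusted p = 0.85).

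*Dcc* had log2 signals of 9.15, 9.35 and 9.71 in controls and 9.999, 10.26 and 10.68 in the *Ezh2* cko. The groups were 0.29 apart and spread similarly, for a log2 difference of 0.91 (95% interval 0.48 to 1.34, adjusted p = 0.181). A second probe set gave nearly the same difference, 0.92 (adjusted p = 0.27), whereas the third, with the lowest signal, was lower on every *Ezh2* cko array, by 0.20 on average. Without control replicate 1 or *Ezh2* cko replicate 3, *Dcc* no longer passed the threshold of the methods. With a replicate block, which rests on the sample numbers alone, *Dcc* passed the adjusted p (0.0303).

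*Unc5c*, which encodes a receptor for netrin-mediated repulsion, was at 9.14, 9.12 and 9.21 in controls and 9.61, 9.44 and 9.48 in the *Ezh2* cko. Its groups were 0.23 apart (log2 difference 0.35, adjusted p = 0.216), and its second probe set gave a larger difference of 0.60 (adjusted p = 0.147), also without overlap. *Neo1*, the neogenin gene, whose product binds netrins and repulsive guidance molecules, was at 10.50, 10.54 and 10.59 in controls and 10.62, 10.64 and 10.81 in the *Ezh2* cko. The groups were 0.03 apart, with a difference of 0.15 (95% interval -0.04 to 0.34). Its other probe sets overlapped between the groups, with differences of 0.13, -0.06, 0.14 and -0.14. *Unc5a*, *Unc5b* and *Unc5d* overlapped between the groups, with differences of -0.08, 0.14 and 0.25.

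Both *Slit1* and *Slit2*, ligands of the Robo receptors, were higher on every *Ezh2* cko array, and neither passed the adjusted p. *Slit1* had signals of 7.24, 7.50 and 7.30 in controls and 7.96, 7.78 and 7.98 in the *Ezh2* cko. The groups were 0.28 apart, for a 1.48-fold difference (log2 difference 0.56, 95% interval 0.34 to 0.79, adjusted p = 0.0953). Its second probe set gave 0.06. *Slit2* was at 8.93, 8.77 and 9.21 in controls and 9.42, 9.33 and 9.21 in the *Ezh2* cko, where the closest arrays were only 0.00079 apart. That difference was 0.35 (adjusted p = 0.514), and its 2 dimmer probe sets gave -0.08 and 0.02. *Slit3* differed by -0.02 (95% interval -0.23 to 0.20).

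*Robo1*, a receptor for Slits, was at 10.36, 10.35 and 10.51 in controls and 10.57, 10.62 and 10.83 in the *Ezh2* cko. All *Ezh2* cko arrays were higher, by 0.06 at the closest and 0.27 on average (adjusted p = 0.545), and a second probe set was likewise higher without overlap (0.16). *Robo3*, which allows commissural axons to cross the midline, was at 4.63, 4.68 and 4.48 in controls and 4.73, 4.71 and 4.68 in the *Ezh2* cko, a difference of 0.11 (95% interval -0.07 to 0.30). Its second probe set, of similar signal, gave -0.12. *Robo2*, through a single probe set at 3.11 to 3.30 on all arrays, differed by 0.03.

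The 22 members with an unadjusted p of 0.05 or more had log2 differences between -0.19 and 0.28, and their adjusted p-values were 0.691 or more. Their 95% intervals together ran from -0.46 to 0.997, and *Epha4* had the widest. Over all 34 members, the interval stayed inside a log2 difference of 0.81 either way for 29, against 17784 of the 18193 genes, a larger share. Of the 72 probe sets of the members, 1 passed the adjusted p, that of *Ephb1*, beside 0.184% higher and 0.00444% lower of all probe sets. Without overlap, 17 of the 72 (23.6%) were higher and 5 (6.94%) lower, against 5.72% and 7.27% of all probe sets. Probe sets of a gene did not always go the same way, as the plot of all probe sets shows.

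**Figure D4:**
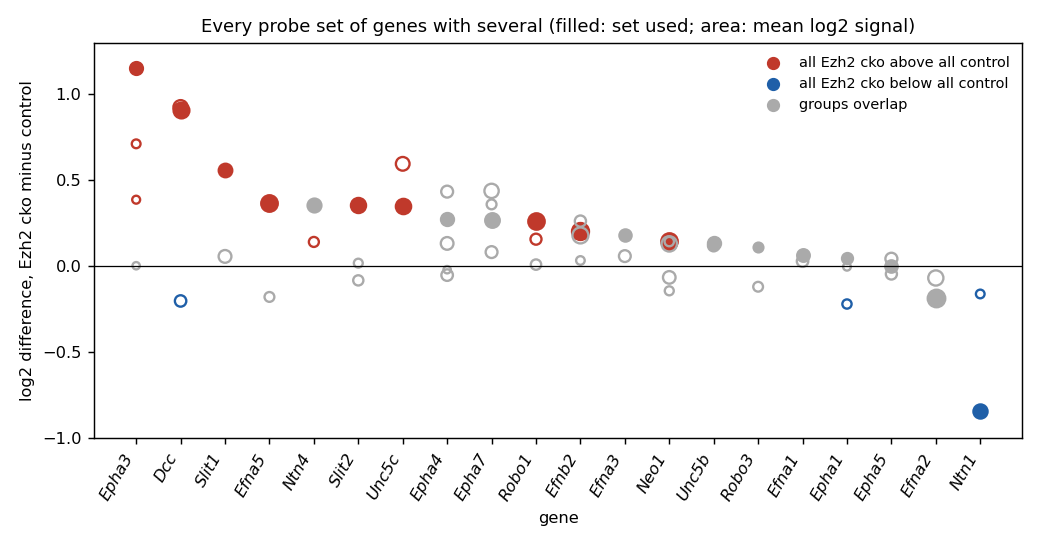
Log2 difference, *Ezh2* cko minus control (y axis), of every probe set of the 20 members with several (x axis); filled symbols are the sets that represent the gene, symbol area follows the mean log2 signal, and color marks whether the groups overlap. *Epha3* and *Unc5c* have several sets higher without overlap, while *Dcc* has 2 at about 0.9 and 1 below 0.

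The arrays also differed in their neuronal transcripts. Growing axons carry many of the receptors, but which cells of this tissue expressed them was not measured. Of 19 neuron markers, 18 had positive differences and none passed the adjusted p, with a median log2 difference of 0.39. Their mean, as a deviation from each gene's mean, was -0.47, -0.08 and -0.02 in controls and -0.07, 0.19 and 0.45 in the *Ezh2* cko. Control replicate 1 was thus the lowest and *Ezh2* cko replicate 3 the highest. The same held for *Epha3*, *Epha4*, *Epha7*, *Dcc*, *Neo1*, *Unc5b*, *Ntn4* and *Slit1*. Mesenchyme markers moved in the same direction (13 of 14 positive, median 0.27), at -0.37, 0.02 and -0.02 in controls and 0.07, 0.11 and 0.19 in the *Ezh2* cko. So did macrophage markers (12 of 13 positive, median 0.23), at -0.47, -0.02 and 0.12 in controls and 0.11, 0.01 and 0.25 in the *Ezh2* cko. In both of these lists, the lowest and the highest array were the same as for the neuron markers. Progenitor, endothelial and erythroid markers had medians of -0.00, 0.06 and -0.05.

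That neuron average was then entered into the model as a term. With it, no member passed the adjusted p, and of all genes 5 were higher and 1 was lower at the adjusted p. All 12 members with an unadjusted p under 0.05 kept their direction, and 8 of them kept at least 0.85 of their log2 difference, a limit set after the values were seen. *Ephb1* was nearly the same, at 0.69 with the term (unadjusted p = 0.000918, adjusted p = 0.284). *Efna5* was at 0.37, *Unc5c* at 0.39, *Slit1* at 0.50 and *Slit2* at 0.39, each within 0.07 of the value without the term. *Ntn1* was at -1.01, a larger difference than without the term.

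The other 4 were smaller, each under 0.65 of its value without the term, with *Epha3* at 0.74, *Dcc* at 0.47, *Robo1* at 0.13 and *Ntn4* at 0.04. *Epha4* and *Epha5* turned to -0.48 and -0.47 (adjusted p = 0.832 and 0.611). Other members also changed sign, with smaller values. *Epha7*, *Unc5b* and *Unc5d* turned negative, at -0.04, -0.01 and -0.06, and *Epha8*, *Efna4* and *Efnb3* turned positive, at 0.10, 0.12 and 0.11. The neuron mean was itself higher on average in the *Ezh2* cko, so the term can also remove a part of the difference that belongs to the genotype. The part of neuronal content in each difference was not tested.

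**Figure D5:**
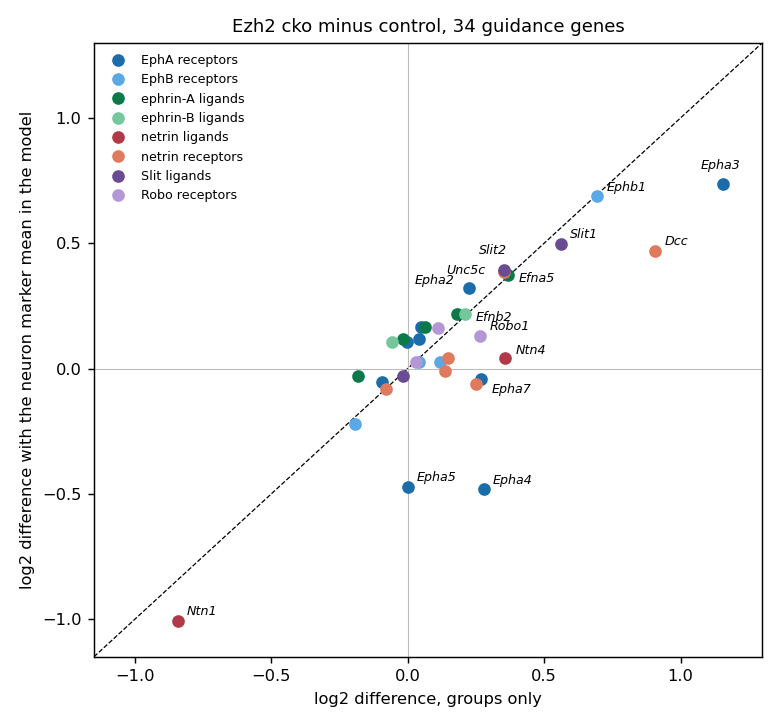
Log2 difference, *Ezh2* cko minus control, of the 34 members without (x axis) and with (y axis) the neuron marker mean in the model, colored by class; the dashed line marks equal values. *Ephb1*, *Efna5*, *Unc5c*, *Slit1* and *Slit2* lie near the line, and *Epha3*, *Dcc*, *Robo1* and *Ntn4* lie below it. *Epha4* and *Epha5* lie lowest of the members that turn negative.

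Other genes of these pathways were taken from a list of 36, of which 34 had a probe set. None passed the adjusted p, 6 were higher and 1 lower at an unadjusted p under 0.05, against 6.12% and 2.75% of all genes, and their median log2 difference was 0.03. Among 16 further ligands and receptors, *Draxin*, which encodes a secreted repellent that binds Dcc, was at 9.001, 9.36 and 9.12 in controls and 9.58, 9.52 and 9.88 in the *Ezh2* cko, a difference of 0.50 (adjusted p = 0.296). *Rgma*, a neogenin ligand that repels axons in the tectum, was at 7.78, 8.29 and 7.93 against 7.40, 7.59 and 7.74, lower on every *Ezh2* cko array (-0.42, adjusted p = 0.504). *Ntng1*, a membrane-anchored netrin relative, had a difference of 0.28 (adjusted p = 0.568).

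Of 18 intracellular partners, *Ngef*, which encodes ephexin, an exchange factor that acts under Eph receptors, showed the largest difference. It was at 6.36, 6.28 and 6.59 in controls and 7.17, 6.89 and 6.93 in the *Ezh2* cko (log2 difference 0.59, adjusted p = 0.134), without overlap. *Vav3*, an exchange factor, and *Grip1*, an adaptor that binds B-type ephrins, had differences of 0.30 and 0.27 (adjusted p = 0.434 and 0.473).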

How the data were processed

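Total RNA from 3 *Ezh2* cko and 3 control dorsal midbrains was hybridized to Affymetrix A430 arrays. The authors deposited log2 signals, 1 per probe set, made with RMA (named in the submitters' processing notes; version not given in the sources used here), which corrects background, equalizes the distributions of the arrays and summarises probes; differences shared by most probe sets are removed by this step. Array medians were 5.68 to 5.72. Array signals carry no read depth, and the number of arrays limits the precision.

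After removal of 64 manufacturer control sets, 45037 probe sets entered a linear model (limma 3.58.1, lmFit and eBayes, under R 4.3.3), *Ezh2* cko minus control, with Benjamini-Hochberg adjustment over all of them and calls at an adjusted p under 0.05. Which test the study applied to its arrays is not stated, and the Student test it used for other data was an alternative. Symbols came from the platform annotation (34945 probe sets with 1 symbol, 932 with several, 9160 with none), updated through Entrez identifiers to the table made on GRCm38.p6 where they matched (34741). Promoter windows came from RefSeq on GRCm38.p6. Members and lists were chosen with earlier results of these data known. Values on every array are given for members that pass the adjusted p or the threshold of the methods, or have an absolute log2 difference of at least 0.5 or an unadjusted p under 0.05, for up to 2 members per class with the highest mean signal, and for *Epha4*, *Epha5* and *Ephb4*, chosen after their values were seen; partners and markers are named when among the 3 largest differences of their list or needed beside a result. The fit was tested on simulated data, with independent noise and shifts larger than most member differences, so the test does not bear on smaller ones. Alternatives were other tests, priors, weights, scalings, filters, probe set choices and thresholds, a replicate term, a neuron marker term, and leaving out each array.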

Additional observations from a re-analysis of the deposited data

How the results depend on the processing

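No difference of the 12 members with an unadjusted p under 0.05 was reversed. Of 227 values under the alternatives, 82 were identical to the reported ones, mostly because the alternative changes only the error or the probe sets tested, and 145 differed. With the mean of the probe sets of a gene, 7 of the 12 differences were over 1.5 times smaller. The count past the adjusted p, 1 higher, fell to 0 with the Student test of the methods, array weights or the neuron term, was 2 (*Epha3* and *Dcc*, without *Ephb1*) with the replicate block, and 3 at an adjusted p under 0.1. Of all genes, 54 were higher in the reported fit, 0 with the Student test, 53 with array weights, 5 with the neuron term and 38 with the replicate block. Without single arrays the count of members ranged from 0 to 1. At the threshold of the methods, 2 higher and 1 lower, the counts were 0 and 0 with the Student test, the neuron term or the mean of the probe sets of a gene, and 2 and 0 with array weights. Without single arrays they ranged from 1 to 2 higher and from 0 to 1 lower. *Epha3* was among them without any 1 array, and *Ntn1* was lost without control replicate 2 or 3 or *Ezh2* cko replicate 1 or 3. With median centring, 1 member in place of 2 had every *Ezh2* cko array below every control. The median log2 difference of the members, 0.13, was 0.0708 with the mean of the probe sets of a gene, and ranged from 0.10 to 0.17 without single arrays.

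Same-numbered samples did not deviate together (correlations 0.06, -0.20 and 0.06), and the labels give no pairing. Samples with different numbers gave correlations from -0.16 to 0.12, so this check cannot show whether any samples share a litter or batch. With the replicate block, the adjusted p-values were 0.0493 for *Epha3*, 0.0303 for *Dcc* and 0.103 for *Ephb1*, and not every sample correlated best with its own number. With 3 arrays per group, no signal marks a gene as unexpressed, and small differences of dim probe sets, such as those of *Robo2*, could not be resolved. The cause of the changes between settings was not tested.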
